A study of Mus musculus with 12 samples.

Results

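Type I interferon-stimulated genes are described here in MC38 tumors, as 32 genes chosen by symbol from general knowledge of the interferon response. This choice, and that of the other gene lists below, was made with earlier results of these data known. All 32 were found among the 23282 lines of the count table, and all passed the filter on low counts that left 13464 genes for testing. The MC38 line derives from a mouse colon carcinoma, and its cells had been injected subcutaneously in the flank of female C57BL/6 mice, wild type in all groups and 6 weeks old by the labels, an age that the methods give before 1 week of acclimation. Tumors from 4 groups with 3 tumors each were sequenced on day 19. The control group (Con) received saline with an IgG2a antibody, the SFIH group received a fraction of Inula helenium rich in sesquiterpene lactones at 50 mg/kg each day, the PD group received 200 μg of an anti-PD-1 antibody 2 times a week, and the Comb group received both. The design asks whether each agent, or the pair, changed the expression of these genes in the tumor.

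Type I interferons bind a receptor made of Ifnar1 and Ifnar2, and the kinases Jak1 and Tyk2 then activate Stat2. With Irf9, Stat2 is part of a complex that binds the interferon-stimulated response element (ISRE) in front of target genes, while interferon gamma acts through another element, the GAS site. The target genes block viral RNA and protein, sense nucleic acids and restrain the pathway itself, and tumor cells, macrophages and dendritic cells can all express them.

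The ISRE was looked for in the RefSeq promoter windows of build GRCm38.p6, which cover 250 bases before and 50 bases after a gene start. The letters searched were GAAANNGAAA on either strand, where N is any base. Windows were matched for 22 of the 32 members and gave 24 windows in all. The letters were present in 11 of the 24 windows (45.8%) and in 3.44% of the 32851 windows of all genes. The GAS letters TTCNNNGAA were present in 4 of the 24 windows (16.7%) and in 8.3% of all windows, and in Bst2 an ISRE match and a GAS match overlapped. The 150 bases before the start are shown for 4 members on which the comparisons turn and for Irf9, which was the member closest to its level in other tumors in a tumor where most members were low. Capitals mark the ISRE letters, which on the opposite strand read TTTCNNTTTC.
Isg15 (chr4:156200819-156200968, minus strand): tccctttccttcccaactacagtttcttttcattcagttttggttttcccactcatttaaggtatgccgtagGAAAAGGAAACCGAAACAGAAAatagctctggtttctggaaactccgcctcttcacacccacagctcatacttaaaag
Ifit1 (chr19:34640739-34640888, plus strand): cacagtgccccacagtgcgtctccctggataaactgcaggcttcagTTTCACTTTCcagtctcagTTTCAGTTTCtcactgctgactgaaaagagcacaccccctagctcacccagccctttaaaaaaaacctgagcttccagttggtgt
Oas1a (chr5:120907526-120907675, minus strand): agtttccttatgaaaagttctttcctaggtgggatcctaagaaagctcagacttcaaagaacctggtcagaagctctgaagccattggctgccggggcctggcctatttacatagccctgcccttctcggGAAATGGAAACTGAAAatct
Rsad2 (chr12:26456453-26456602, minus strand): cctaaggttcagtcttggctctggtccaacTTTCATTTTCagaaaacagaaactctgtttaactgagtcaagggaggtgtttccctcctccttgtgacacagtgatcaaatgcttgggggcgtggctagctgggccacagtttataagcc
Irf9 (chr14:55603835-55603984, plus strand): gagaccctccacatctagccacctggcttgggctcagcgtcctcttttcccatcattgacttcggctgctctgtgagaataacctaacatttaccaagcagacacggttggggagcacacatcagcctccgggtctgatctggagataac
In Isg15, which encodes a ubiquitin-like protein attached to other proteins, 3 overlapping matches began 78, 72 and 66 bases before the start. Ifit1, which binds foreign RNA, had matches 104 and 85 bases before the start, both on the opposite strand. Oas1a, an RNA-activated synthetase, had overlapping matches 20 and 14 bases before the start, and Rsad2, which encodes the antiviral protein viperin, had 1 match 120 bases before it on the opposite strand. Neither of the 2 windows of Irf9 held these letters. A match is a description of the letters and not a measured binding site.

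Each tumor had its own library, and the total count, read from the 3′ ends of transcripts, was 7870741 to 12261032. Levels are given in CPM, counts relative to library size after TMM, a factor that aligns the bulk of genes between tumors, and a log2 fold change is the difference between 2 groups in the fit. The labels call the samples tumor cells, but leukocyte RNA was present in every tumor, with the pan-leukocyte gene Ptprc at 66.7 to 497 CPM. The 8 epithelial markers summed to 4.68 to 25.2 CPM in 11 tumors and to 116 in Comb replicate 3. In such bulk tissue, fewer cells of a type and less RNA per cell cannot be told apart. The tumors are named as separate samples, and where animals were shared is not given, so that p-values measure the spread between these tumors.

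Comb replicate 3 stood apart from the other 11 tumors. The 32 members took 0.121% of its counts, against 0.375% to 0.656% in the others. It had the lowest level of all 12 tumors in 30 of the 32 members, where 38.6% of all genes tested were lowest in that tumor, and the highest level in 1 member, where 34.1% of all genes were highest. The median member lay at −1.86 relative to the mean of Con in log2(level + 1), where the median gene lay at −0.12 with quartiles of −1.07 and 0.94. By library size alone, the median member lay at −2.32 and the median gene at −0.55. In the same tumor, all 8 macrophage markers, all 8 skeletal muscle markers and all 6 skin markers were higher than in any other tumor. Macrophage markers summed to 14486 CPM, against 547 to 3930 in the other tumors, skeletal muscle markers to 5908 against 3 to 564, and skin markers to 405 against 2.81 to 25.9. The part of these tissues in the low member levels was not tested, and the Comb tumors are therefore given singly.

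**Figure D1:**
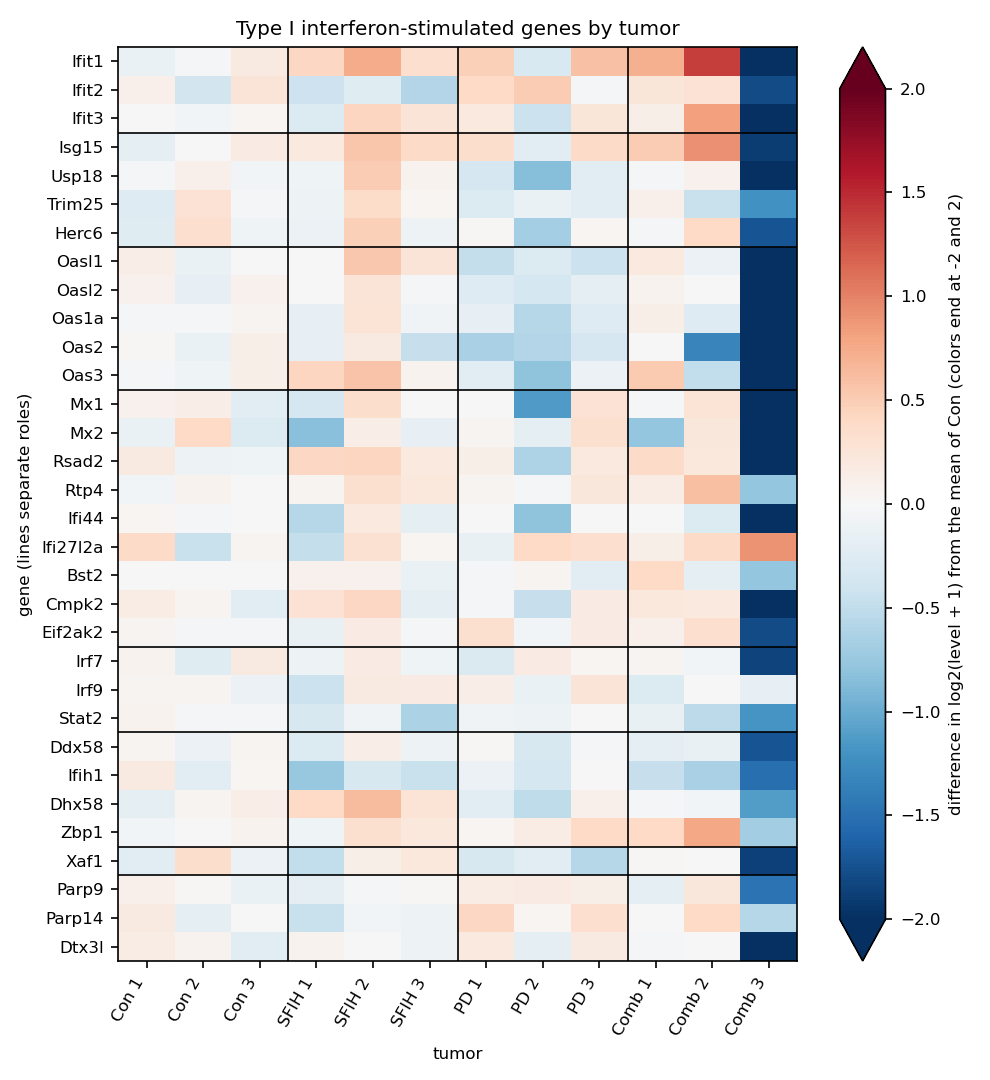
Each cell is 1 of the 32 genes in 1 of the 12 tumors, colored by the difference in log2(level + 1) from the mean of the 3 Con tumors, with colors ending at −2 and 2. Comb replicate 3 is blue in 31 rows and red in Ifi27l2a, and PD replicate 2 is below the mean of Con in 25 of 32.

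The IFIT family, whose proteins hold tetratricopeptide repeats and bind viral RNA, had the highest median of the 8 roles relative to Con in any tumor, at 0.81 in log2(level + 1) in Comb replicate 2. Ifit1 stood at 157, 170 and 195 CPM in the Con tumors, 231, 291 and 220 with SFIH, 241, 141 and 260 with anti-PD-1, and 283, 452 and 36.9 with both agents. The SFIH tumors and Comb replicates 1 and 2 lay above all Con tumors, PD replicate 2 lay below them, and Comb replicate 3 was the lowest. Ifit3 stood at 187 to 198 in Con and at 209, 341 and 24.5 in Comb, and some of its reads may belong to its near-identical neighbor Ifit3b. Ifit2 ranged from 27.9 to 60.5 in the 11 tumors other than Comb replicate 3, where it was 11.5, and its SFIH levels of 27.9 to 35.5 overlapped those of Con at 32.7 to 50.8.

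Isg15 and the enzymes that add or remove its protein did not share 1 pattern. Isg15 itself stood at 472, 536 and 596 CPM in Con, 612, 781 and 693 with SFIH, 678, 455 and 692 with anti-PD-1, and 760, 1000 and 142 with both agents. All SFIH tumors and Comb replicates 1 and 2 were above all Con tumors. Usp18, which removes the Isg15 protein and dampens receptor signaling, stood at 79.7, 87.7 and 78.8 in Con, 77.1, 117 and 86.2 with SFIH, 64.8, 45.2 and 70 with anti-PD-1, and 80.6, 86.8 and 14.5 with both agents. All 3 PD tumors were below all Con tumors. Herc6, the mouse ligase for Isg15, ranged from 53 to 119 in 11 tumors with 25.1 in Comb replicate 3, and Trim25, which modifies the RNA sensor encoded by Ddx58, from 75.5 to 133 with 44.1.

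The OAS family, which makes 2′-5′ oligoadenylates or binds the same RNA ligands, was without overlap between PD and Con in all 5 of its members listed, with the PD tumors lower, where 9.36% of all genes were lower without overlap. With levels scaled by library size alone Oasl2 overlapped, and no difference passed a test. Of 3 further genes of the family, Oas1c and Oas1g were also lower in PD without overlap, and Oas1b overlapped, at 3.94, 8.52 and 7.85 CPM in Con and 10.4, 1.77 and 5.69 in PD. Oasl1 stood at 98.1, 81.4 and 90.3 CPM in Con and at 64.3, 73.7 and 66.5 in PD. Oas2 stood at 26.8, 23.9 and 28.6 in Con and at 16.4, 17.3 and 20.8 in PD, and at 26.1, 10 and 1.56 in Comb. Oas3 stood at 33.8 to 39.1 in Con and 20 to 33 in PD, Oas1a at 74.1 to 79.3 and 51.1 to 68.2, and Oasl2 at 139 to 166 and 122 to 138. The groups came close in Oas3 and Oasl2, and reads of Oas1a may be shared with the near-identical Oas1g. In Comb, Oasl1, Oasl2, Oas1a and Oas3 were at 103, 164, 82.3 and 51.7 in replicate 1 and at 83, 157, 63.8 and 25.3 in replicate 2. In replicate 3 these 4 genes were at 12.1, 29.8, 13.5 and 0.481, the last from 4 counts, which is 72.6-fold under the median of the other tumors.

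Among the effectors, Rsad2 stood at 727, 600 and 606 CPM in Con, 857, 867 and 734 with SFIH, 698, 418 and 738 with anti-PD-1, and 836, 741 and 41 with both agents. The SFIH tumors and Comb replicates 1 and 2 were above all Con tumors, and PD replicate 2 was below them. Cmpk2, a nucleotide kinase that neighbors Rsad2, ranged from 47.7 to 88.6 in 11 tumors with 6.61 in Comb replicate 3, and Ifi44, a microtubule-associated protein, from 227 to 457 with 15.1, or 26.1-fold under the median of the others. The Mx genes encode GTPases that trap viral particles, and C57BL/6 mice carry a known defect in Mx1. Mx1 ranged from 17.6 to 51.1 with 8.41 in Comb replicate 3, and Mx2 from 9.52 to 23.8 with no count in that tumor, which is at least 44.7-fold lower than the median of the others when set at the floor of 3 counts in that library. Smaller gaps were seen in Rtp4, a chaperone of receptors, at 166 to 263 with 100.4 in Comb replicate 3, in Bst2, which tethers virus particles, at 143 to 221 with 97.4, and in Eif2ak2, the kinase PKR that halts translation, at 60.7 to 85.3 with 18.7. Ifi27l2a, a mitochondrial protein, was the only member with its highest level in Comb replicate 3, at 296 against 114 to 210 in the other tumors, and reads may be shared with its paralog Ifi27l2b.

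Of the transcription factors, Stat2 stood at 69.7, 65.2 and 64.6 CPM in Con, 52.8, 63 and 42.7 with SFIH, 63.3, 61.7 and 66 with anti-PD-1, and 59.7, 45.8 and 28.7 with both agents. All SFIH and all Comb tumors were below all Con tumors. Irf7, which amplifies interferon production, overlapped between all groups at 108, 86.7 and 117 in Con, 96.4, 116 and 96.8 with SFIH, 84.7, 115 and 106 with anti-PD-1, and 107, 99.3 and 27.9 with both agents. Irf9 stood at 111 to 125 in Con, and its 107 in Comb replicate 3 was within the range of 88.9 to 144 in the other tumors.

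Of the nucleic acid sensors, Ifih1, which encodes the RNA sensor MDA5, stood at 101, 75.8 and 90.7 CPM in Con, 52, 70.4 and 65.1 with SFIH, 81.5, 69.5 and 88.3 with anti-PD-1, and 63.8, 56.2 and 30.6 with both agents. The SFIH and Comb tumors were all below the Con tumors. Ddx58, which encodes RIG-I, stood at 137 to 154 in Con and at 130, 134 and 44 in Comb, just below in replicates 1 and 2. Dhx58, whose product LGP2 tunes both sensors, was higher in SFIH than in Con without overlap, at 37.3, 43.7 and 34.1 against 24.6, 29 and 30.7 in Con. Zbp1, a sensor of Z-form nucleic acid, stood at 233 to 255 in Con and at 323, 418 and 151 in Comb.

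The remaining members overlapped between most groups. Xaf1, which promotes apoptosis, stood at 51.4 to 77.9 in Con and 40.5 to 51.9 in PD. Parp9, which forms a complex with the ligase encoded by Dtx3l, stood at 252 to 263 in PD and 213 to 250 in Con, with no overlap. Parp14, an ADP-ribosyltransferase, ranged from 141 to 257 in 11 tumors with 129 in Comb replicate 3, and Dtx3l from 123 to 164 with 32.7.

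**Figure D2:**
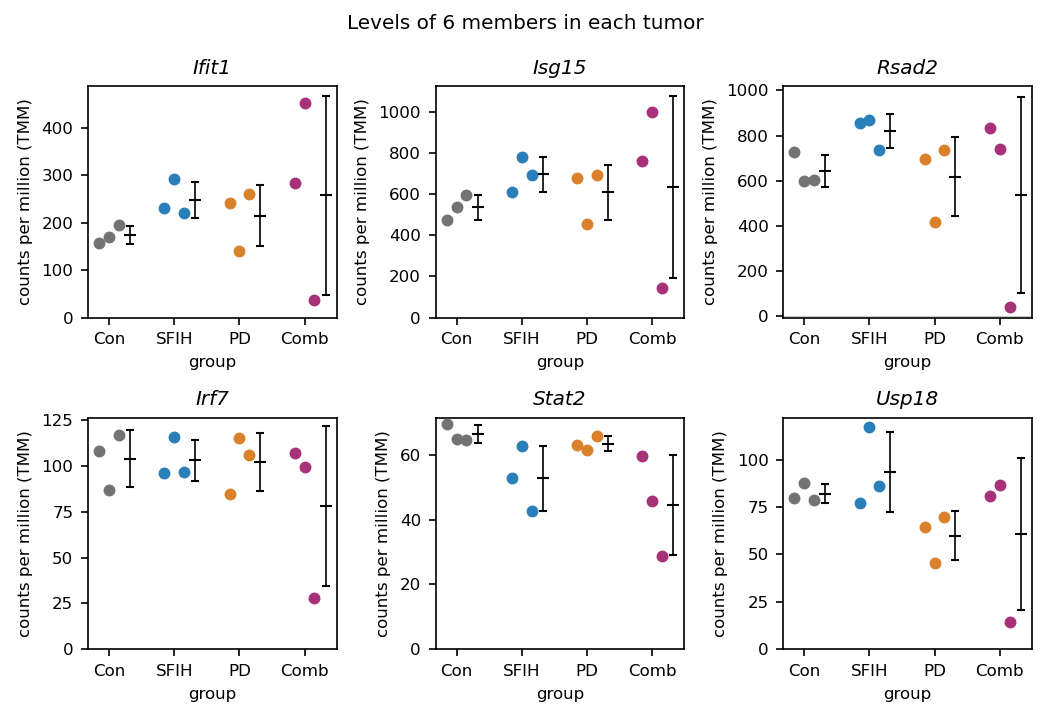
Points are the 3 tumors of each group in order of replicate for 6 members, in CPM scaled by TMM, and the bar beside them is the mean with its SD (n = 3). The third Comb tumor is below the other 11 in all 6 panels, and the PD tumors lie under the Con tumors in Usp18.

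The comparison of SFIH with Con asks what the plant fraction alone did to these genes. Ifit1, Isg15, Rsad2 and Dhx58 were higher in all 3 SFIH tumors than in all 3 Con tumors, and Stat2 and Ifih1 were lower. These are 4 of 32 members higher and 2 lower, where 8.55% and 8.86% of all genes tested did not overlap in those directions. With levels scaled by library size alone, 2 were higher (Isg15 and Rtp4), against 7.55% of all genes, and 1 lower (Ifih1), against 8.85%. No member passed an adjusted p of 0.05 (quasi-likelihood test in edgeR, adjusted by Benjamini-Hochberg over the whole table), where 0% of all genes did, and 0 had an unadjusted p under 0.05, against 2.25% of all genes. DESeq2 and voom with sample weights also called 0 members, against 0.0297% and 0% of all genes. The log2 fold change was 0.51 ± 0.61 (SE) for Ifit1, 0.38 ± 0.50 for Isg15, 0.35 ± 0.71 for Rsad2 and 0.45 ± 0.29 for Dhx58, all with an adjusted p of 0.9998. It was −0.51 ± 0.26 for Ifih1, −0.33 ± 0.24 for Stat2, −0.44 ± 0.43 for Ifit2, −0.20 ± 0.24 for Parp14, −0.015 ± 0.38 for Irf7 and 0.19 ± 0.48 for Usp18, with the same adjusted p. The median over the members was 0.0175, beside 0.0213 over all genes. It was −0.088 without SFIH replicate 2, with 22 of 32 members lower, 0.13 without SFIH replicate 1 and −0.0005 without Comb replicate 3. With voom and sample weights it was 0.12, with 23 of 32 higher. The fit shares its spread over the 4 groups, and without Comb replicate 3 the common dispersion was 0.0677 in place of 0.158. In that fit 4 members had an unadjusted p under 0.05, namely Ifih1, Ifit2 and Stat2 lower and Dhx58 higher, against 7.86% of all genes, and none passed the adjusted p. With SFIH and Con fitted alone, 8 members had an unadjusted p under 0.05, 5 higher and 3 lower, against 10.8% of all genes, and with voom without Comb replicate 3 there were 9, 7 of them higher, against 14.4%. No member passed the adjusted p in either.

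The comparison of PD with Con asks the same of the antibody. No member passed a test here. In levels, 6 of 32 members were lower in all PD tumors than in all Con tumors (Oasl1, Oasl2, Oas1a, Oas2, Oas3 and Usp18), against 9.36% of all genes, and 1 was higher (Parp9), against 9.42%. With levels scaled by library size alone, 7 members were lower (Oasl2 left the list, and Bst2 and Xaf1 joined it), against 14.8% of all genes, and 0 higher, against 5.76%. The adjusted p in edgeR passed for 0 members and 0% of all genes, and 0 members had an unadjusted p under 0.05, against 3.99% of all genes, with 0 called by DESeq2 or voom, against 0.0446% and 0.616%. The log2 fold change was −0.54 ± 0.63 (SE) for Oas2, −0.40 ± 0.53 for Oasl1, −0.45 ± 0.48 for Usp18, −0.39 ± 0.41 for Xaf1, −0.23 ± 0.29 for Trim25 and 0.27 ± 0.24 for Parp14, each with an adjusted p of 0.9998 in edgeR. For Ifit1 it was 0.30 ± 0.61, for Isg15 0.19 ± 0.50, for Rsad2 −0.060 ± 0.70, for Irf7 −0.028 ± 0.38 and for Stat2 −0.063 ± 0.24, at the same adjusted p. The median over the members was −0.062, beside 0.0122 over all genes, and 0.0115 with voom and sample weights.

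PD replicate 2 was the tumor with the lowest member share after Comb replicate 3, and it also had more T cell RNA (120 CPM over 8 markers, against 43.1 and 56.9 in the other PD tumors) and macrophage RNA (1951, against 981 and 1299). Erythroid markers summed to 1524 CPM in that tumor, against 64.5 and 240 in the other PD tumors, and fibroblast markers to 4922, against 2666 and 3853. Neutrophil markers summed to 97.4, against 17.4 and 18.7, and skeletal muscle markers were lower, at 3 against 123 and 9.5. The part of these cells in the result was not tested. Without that tumor, 8 members were lower in PD than in Con without overlap, the 6 above with Bst2 and Xaf1, against 17.6% of all genes. Another 8 were then higher, against 18.9% (Ifit1, Ifit3, Isg15, Irf9, Eif2ak2, Parp9, Parp14 and Dtx3l), and the median over the members was 0.039. Without Comb replicate 3, Usp18, Oasl1 and Oasl2 had an unadjusted p under 0.05, all lower, against 10.7% of all genes. With PD and Con fitted alone there were 5, all lower, against 13.2%, and with voom without Comb replicate 3 there were 6, with 5 lower, against 19.3%, and the adjusted p passed for none in these fits.

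The comparison of Comb with Con moved with each Comb tumor that was left out, and replicate 3 stood furthest from the Con tumors. Relative to the mean of Con, the median member lay at 0.063 in Comb replicate 1, 0.047 in replicate 2 and −1.86 in replicate 3, and 20, 20 and 1 of the 32 members lay above that mean. Over the 3 tumors, Stat2, Ddx58 and Ifih1 were lower than in all Con tumors, 3 of 32 against 13% of all genes, and 0 members were higher, against 11.7%. With levels scaled by library size alone, 5 were lower (these 3 with Irf9 and Usp18), against 22.2% of all genes, and 0 higher, against 7.6%. No member passed the adjusted p in edgeR, as for 0% of all genes, and 2 had an unadjusted p under 0.05, both lower, against 25.3% of all genes. These were Ifih1, with a log2 fold change of −0.83 ± 0.26 (SE) and an adjusted p of 0.0882, and Stat2, with −0.57 ± 0.24 and 0.174. Oas2 was at −1.07 ± 0.64 (adjusted p 0.305), Ddx58 at −0.53 ± 0.33 (0.328), Trim25 at −0.44 ± 0.29 (0.347) and Ifi27l2a at 0.46 ± 0.29 (0.327). Ifit1 was at 0.56 ± 0.61 (0.554), Isg15 at 0.25 ± 0.50 (0.759), Rsad2 at −0.26 ± 0.71 (0.825), Irf7 at −0.41 ± 0.38 (0.494) and Usp18 at −0.44 ± 0.48 (0.566). The median over the members was −0.33, beside −0.033 over all genes. With voom and sample weights it was −0.0187, with 15 members higher and 17 lower. It was −0.66 without Comb replicate 1, with 26 of 32 members lower, and −0.63 without Comb replicate 2, with 31 of 32 lower, and without replicate 2 Ifit1 was at −0.12 and Isg15 at −0.24.

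Without Comb replicate 3, the same fit gave a median of 0.031 over the members, and 19 of 32 had a fold change above 0 in place of 5. Ifit1 was then at 1.07 ± 0.26 (SE, adjusted p 0.0972), Isg15 at 0.71 ± 0.20 (0.118), Zbp1 at 0.59 ± 0.17 (0.115) and Ifih1 at −0.58 ± 0.18 (0.133). None of the members passed the adjusted p in edgeR, against 0.0371% of all genes. Over all alternatives the adjusted p ran from 0.00582 to 0.904 for Ifit1, 0.0211 to 0.96 for Isg15, 0.0182 to 0.931 for Zbp1 and 0.0209 to 0.424 for Ifih1. An unadjusted p under 0.05 was found for 5 members, these 4 and Rtp4, against 19.2% of all genes. DESeq2 in that setting called Ifit1, Isg15 and Zbp1 higher, 3 of 32 against 5.47% of all genes, and voom with sample weights called 0 members, against 0.0149%, with a lowest adjusted p of 0.337. In levels, 8 members were higher in both remaining Comb tumors than in all Con tumors, against 16.2% of all genes, namely Ifit1, Ifit3, Isg15, Rsad2, Rtp4, Cmpk2, Zbp1 and Eif2ak2. Another 3 were lower, against 16.7%, namely Stat2, Ddx58 and Ifih1. In Comb replicates 1 and 2, macrophage markers summed to 1067 and 3930 CPM, against 547 to 928 in Con. Fibroblast markers summed to 2107 and 8457, against 1274 to 1837, and T cell markers to 37.4 and 132.5, against 24 to 40.5. Skeletal muscle markers summed to 564 and 5.17, against 4.41 to 10.4. The part of these cells in the member levels was not tested.

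The tools gave different calls in this comparison. With all 12 tumors, DESeq2 called 1 member between Comb and Con, Ifih1, lower, and 14.8% of all genes. Voom with sample weights, from limma, gave Comb replicate 3 a weight of 0.0596 and called 6 members and 20.2% of all genes. Rtp4, Ifit1, Zbp1 and Isg15 were higher in it and Ifih1 and Oas2 lower, with adjusted p-values of 0.0161 to 0.0332. Ifih1 was the 1 member that both called. Without Comb replicate 1, edgeR called 4 members, all lower (Stat2, Trim25, Ifih1 and Oas2), and 28.1% of all genes.

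**Figure D3:**
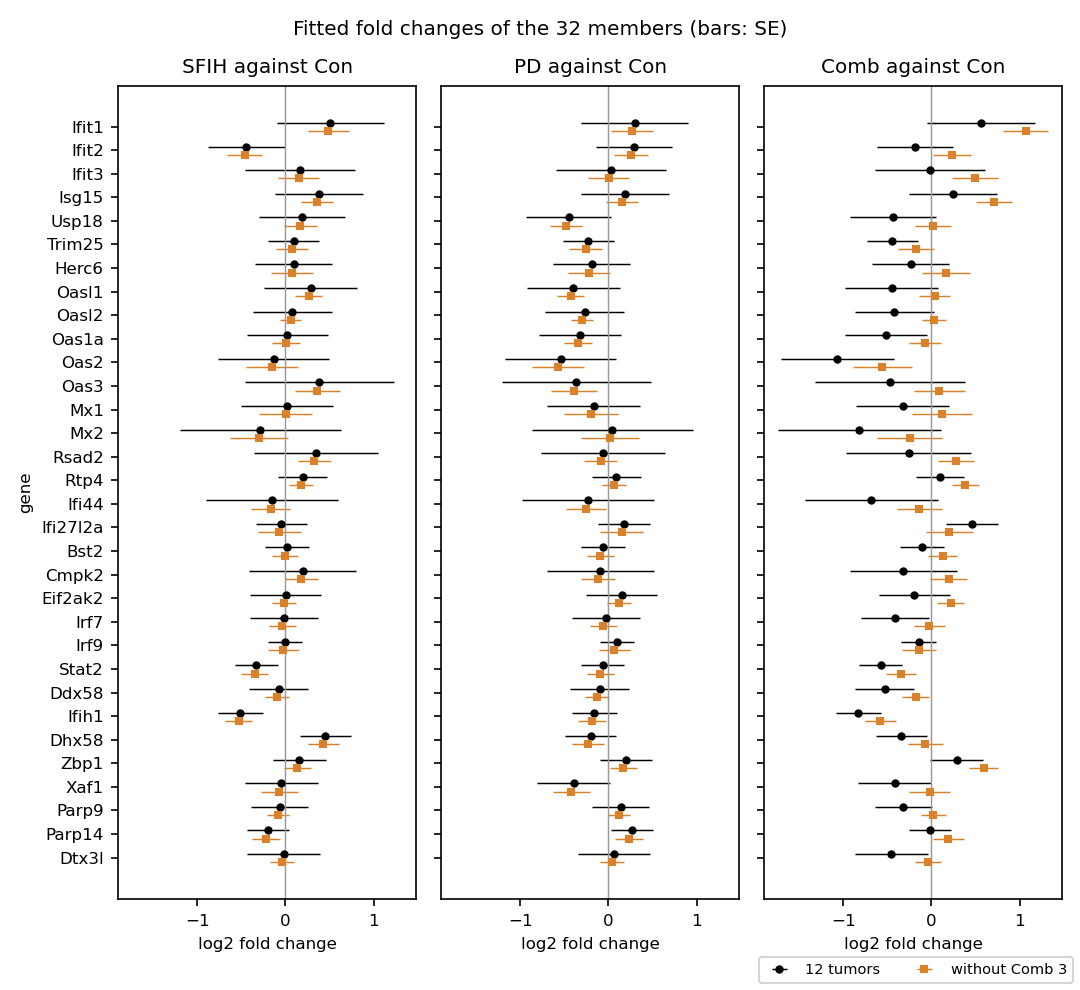
Log2 fold changes against Con with SE bars from edgeR for the 32 members, in 3 panels for SFIH, PD and Comb, from all 12 tumors (circles) and without Comb replicate 3 (squares). In the Comb panel Rsad2 moves from −0.26 to 0.28 and Ifit1 from 0.56 to 1.07 without that tumor, and the bars shorten in all panels.

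The other comparisons ask what SFIH added to the antibody and the reverse. Between Comb and PD the median over the members was −0.20 and 1 member had an unadjusted p under 0.05, against 18% of all genes, and between Comb and SFIH it was −0.36 with 1 member, against 19%. Without Comb replicate 3 these medians were 0.19 and 0.024, and with voom and sample weights on all 12 tumors 0.0223 and −0.13. Between Comb and PD, 7 members then had an unadjusted p under 0.05, 6 of them higher in Comb, against 9.14% of all genes, and between Comb and SFIH 5, with 4 higher, against 10.8%. For the interaction between both agents the median was −0.24 with 0 members at an unadjusted p under 0.05, against 2.55% of all genes, and the median was 0.16 without that tumor. For anti-PD-1 averaged over SFIH the median was −0.24 with 1 member, against 18.7%, and −0.041 with 7 members, 4 of them higher, against 19.9%. With all 12 tumors, 0 members and 0% of all genes passed the adjusted p in edgeR in these 4 comparisons. Without Comb replicate 3 the averaged antibody effect had 0 members and 0.0149% of all genes called. Without Comb replicate 1, edgeR called 2 members lower between Comb and SFIH, against 22.4% of all genes, and 1 lower for the averaged antibody effect, against 17.2%. Voom with sample weights called 2 members between Comb and SFIH (Trim25 and Oas2, both lower, 15% of all genes) and 5 for the antibody averaged over SFIH (Parp14 and Zbp1 higher, Trim25, Oasl1 and Oas2 lower, 20.7% of all genes). These comparisons share tumors with those above.

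The ligands of the pathway were at or near 0. Of 20 type I and type III interferon genes looked for, 17 had no count in any tumor, the Ifna genes among them, and Ifnb1 had at most 3 counts and Ifnz at most 18. A count of 0 allows up to 3 counts in a library of this depth. The 4 genes of the receptor and its kinases were all counted, and none passed the adjusted p in edgeR in any of the comparisons with Con, while DESeq2 called 2 of them higher in Comb, Ifnar1 and Tyk2, against 14.8% of all genes. The same 2 were higher in Comb than in Con without overlap, against 11.7% of all genes, at 16.8 to 30 CPM against 12.4 to 16.7 and at 6.99 to 19.8 against 4.46 to 6.66, and by library size alone Ifnar1 overlapped. Jak1 was at 265 to 401 in SFIH and 402 to 501 in Con, which came within 1 CPM, 1 gene of 4 lower without overlap against 8.86% of all genes, with a log2 fold change of −0.36 ± 0.21 (SE) and an adjusted p of 0.9998 in edgeR. In Comb replicate 3, where the members were low, all 4 were at their highest of the 12 tumors after TMM, as were 34.1% of all genes. For Jak1 this turned by library size alone, with all Comb tumors below all Con tumors, at 328.5 to 392 against 434.2 to 519.8. In that direction and scaling 22.2% of all genes did not overlap.

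Of 14 genes that sense nucleic acids and switch on interferon, 11 were tested and none passed the adjusted p in edgeR against Con, while DESeq2 called Irf5, Myd88 and Tlr7 higher in Comb, against 14.8% of all genes. Myd88, the adaptor of Toll-like receptors, stood at 49.5, 54.2 and 70.8 CPM in Con, 70, 65.9 and 60.8 with SFIH, 88.8, 76.4 and 71.1 with anti-PD-1, and 92.6, 87.7 and 121 with both agents. Irf5, a transcription factor downstream of these receptors, stood at 10.1 to 17.2 in Con, 17.5 to 22.8 in PD and 19.7 to 38.3 in Comb. Both were above Con in PD and in Comb without overlap, 2 of 11 against 9.42% and 11.7% of all genes. With levels scaled by library size alone neither separated in PD, where Mavs and Irf3 were instead lower, against 14.8% of all genes, and in Comb Irf5 was higher, against 7.6%. In SFIH the 2 genes above Con without overlap, against 8.55%, were Tmem173, which encodes the adaptor STING, at 87.1 to 94.5 against 57.6 to 82.3, and Tlr7, a sensor of single-stranded RNA, at 11.2 to 12.8 against 5.31 to 10.9, and by library size alone Tlr7 overlapped. Comb replicate 3 was the highest tumor in 8 of the 11, against 34.1% of all genes, and the lowest in 2, against 38.6%.

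Among 37 other interferon-stimulated genes that were tested, none passed the adjusted p in edgeR in the comparisons with Con, and DESeq2 called 4 of them higher in Comb (Epsti1, Ms4a4c, Phf11b and Slfn5), against 14.8% of all genes. In SFIH, 28 of them had a fold change above 0, with a median of 0.20, and 5 were higher without overlap, against 8.55% of all genes, and 0 lower. By library size alone 3 were higher, against 7.55%, and 0 lower. Ube2l6, the enzyme that carries the Isg15 protein to its targets, stood at 12.3, 15.1 and 15.1 CPM in Con, 41.1, 44 and 20.4 with SFIH, 9.92, 7.63 and 10.9 with anti-PD-1, and 25.3, 21.3 and 11.1 with both agents. Ifitm3, which blocks viral entry, stood at 2306 to 2518 in Con, at 2817 to 3035 in SFIH and at 1977 to 2154 in PD. Both were thus above Con in SFIH and below it in PD, with no overlap. In PD, 5 of the 37 were lower without overlap, against 9.36% of all genes, and 3 higher, against 9.42%, with a median of −0.0018. By library size alone 5 were lower, against 14.8%, and 2 higher, against 5.76%. In Comb, 5 of the 37 were higher than in Con without overlap, against 11.7% of all genes, and 2 lower, against 13%. By library size alone 3 were higher, against 7.6%, and 5 lower, against 22.2%. Without Comb replicate 3, 12 were higher, against 16.2%, and 2 lower, against 16.7%. Comb replicate 3 was the lowest tumor in 18 of the 37, against 38.6% of all genes, and the highest in 5, against 34.1%.

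Interferon gamma genes were higher in the PD tumors than in the Con tumors in most of the list. Summed over the 16 genes, their level was 1341 to 1866 CPM in Con, 1480 to 1797 with SFIH and 2969 to 3765 with anti-PD-1, and 2052, 7403 and 27849 in the Comb tumors. The MHC class II genes H2-Aa, H2-Ab1 and Cd74 made up 25469 of the 27849 in Comb replicate 3, and 640 and 3936 in replicates 1 and 2. The other 13 genes summed to 1188 to 1378 in Con, 1227 to 1243 with SFIH, 2072 to 2469 with anti-PD-1, and 1412, 3467 and 2380 in the Comb tumors. In Comb replicate 3, Irgm1 (18.9), Igtp (147) and Ido1 (0) were at their lowest of the 12 tumors, 3 of 16 against 38.6% of all genes, and 8 of the 16 at their highest, against 34.1%. In PD, 12 of the 16 were higher than in all Con tumors, against 9.42% of all genes, with 0 lower, and 8 had an unadjusted p under 0.05, against 3.99%, although none passed the adjusted p in edgeR or DESeq2. In Comb none passed in edgeR and DESeq2 called 10 higher, against 14.8% of all genes. The 16 genes were chosen with earlier results of these data known, so these counts are a description. Cxcl9, a chemokine for T cells, stood at 61.5 to 152 in Con and 265 to 375 in PD, and Cd274, which encodes the PD-1 ligand, at 41.9 to 43.5 and 80.1 to 145. The summed level of the 32 members was 4657 to 4881 in Con, 4675 to 5899 with SFIH, 4021 to 5292 with anti-PD-1, and 5435, 6008 and 1602 in the Comb tumors. Macrophages also express several of the interferon gamma genes, and the 8 macrophage markers summed to 547 to 928 in Con and 981 to 1951 in PD. The 8 T cell markers summed to 24 to 40.5 and 43.1 to 120, the 5 fibroblast markers to 1274 to 1837 and 2666 to 4922, and the leukocyte gene Ptprc stood at 66.7 to 132 and 143 to 236. All 4 were without overlap after TMM. By library size alone, Ptprc and the macrophage and T cell sums overlapped, and the fibroblast sums stayed apart. The part of these cells in the levels of the interferon genes in PD was not tested.

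**Figure D4:**
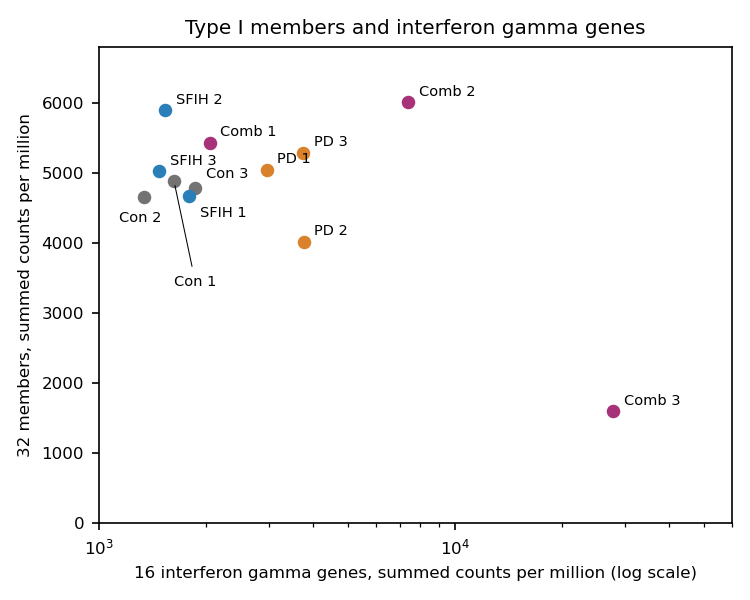
Each point is a tumor, with the summed CPM of 16 interferon gamma genes on a log axis and of the 32 members on a linear axis. The PD tumors lie to the right of the Con tumors at similar heights, and Comb replicate 3 lies far right and low, at 27849 and 1602, of which H2-Aa, H2-Ab1 and Cd74 make up 25469 on the horizontal axis.

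The likeness of the members to each other over the tumors was also computed. For this, CPM was scaled by library size alone, without TMM. On that scale the median gene in Comb replicate 3 lay at −0.55 relative to the mean of Con. Over 12 tumors, the median Pearson correlation between 2 members in log2(CPM + 1) was 0.88, and without Comb replicate 3 it was 0.38. Over the 12 tumors, 1906 of 10576 other genes with at least 50 counts on average had a correlation above 0.9 with the mean of the members, led by Fkbp4 (0.99), Pbx3, Mcts2, Oas1g, Tyms, Tinf2, Pdgfa, Gpatch1, Ran and Rnf168. Over the other 11 tumors only 14 did, led by Tor3a (0.97), Shq1 (0.96), Oas1g (0.95), Ms4a4d (0.93), Oaz1-ps, Ppp1cc, Tlr3, Abhd14a, Fkbp4 and Derl1. These points share library depth and tissue makeup, and the values are a description. Within those 11 tumors, Oas1a (0.91), Ifi44 (0.90) and Usp18 (0.89) followed the other members most closely, while Ifit2 (−0.22), Parp9 (0.10) and Ifi27l2a (0.16) followed them least.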

How the data were processed

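Total RNA of 12 tumors was made into QuantSeq 3′ mRNA-Seq libraries and read as single 75 bp reads. The authors deposited raw read counts per gene symbol. The aligner, counting tool, genome build and annotation are not given in the sources used here. Columns were matched to tumors by their labels. Counts were filtered with filterByExpr, scaled by TMM and fitted with the quasi-likelihood test of edgeR 4.0.16 in R 4.3.3, with all 12 tumors in 1 fit, two-sided tests and Benjamini-Hochberg adjustment over 13464 genes at a threshold of 0.05. DESeq2 1.42.0 and voom with sample weights from limma 3.58.1 were alternatives, with other filters and scalings and with each tumor left out. In simulated counts at a dispersion of 0.158, with 200 of 13464 genes changed 4-fold between Comb and Con, edgeR recovered 77%. The simulation gave every gene that dispersion and held no outlying tumor. The 77% therefore does not give the recovery of smaller changes or of changes in these tumors. The members and gene lists were chosen with earlier results of these data known. Fold changes are given for 6 fixed members and the 6 with the smallest adjusted p in each comparison with Con. Counting error covers only part of the error, and molecular identifiers are not mentioned in the sources used here. No gene set test was run, and 1 signaling gene is not reported here.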

Additional observations from a re-analysis of the deposited data

How the results depend on the processing

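Of 159 alternative counts of members called, 150 were 0 as in the main analysis. For Comb against Con the count was 1 with DESeq2, 6 with voom and sample weights, 3 with DESeq2 without Comb replicate 3, and 0 to 4 with each tumor left out. For Comb against SFIH it was 2 with voom and 0 to 2 with each tumor left out, and for anti-PD-1 averaged over SFIH it was 5 with voom, 1 with DESeq2 without Comb replicate 3 and 0 to 1. The 4, 2 and 1 came without Comb replicate 1. Of 704 alternative log2 fold changes of named members, 668 kept their direction and side of the threshold and 25 changed sign. With voom the sign changed for Irf7 in SFIH (0.034), Rsad2 in PD (0.097), and Rsad2 (0.14) and Usp18 (0.011) in Comb. With voom without Comb replicate 3 the same values were 0.014, 0.064, 0.30 and 0.0215, and with DESeq2 without it Rsad2, Usp18 and Irf7 in Comb were at 0.31, 0.048 and 0.0051. With each tumor left out, Irf7 ranged from −0.14 to 0.072 in SFIH and −0.15 to 0.090 in PD, Usp18 from −0.014 to 0.30 in SFIH and −0.78 to 0.0185 in Comb, and Rsad2 from −0.21 to 0.16 in PD and −0.70 to 0.28 in Comb. In Comb, Ifit1 ranged from −0.12 to 1.07 and Isg15 from −0.24 to 0.71, with the lowest values without Comb replicate 2. The cause was not tested.

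Tumors that share a replicate number are not stated to be paired, and their deviations correlated at −0.288 to 0.409 over 18 pairs. With the replicate number as a block, 0 members were called in the 7 comparisons, and the median over the members was −0.45 for Comb against Con, −0.048 for PD against Con and 0.0078 for SFIH against Con. Without TMM the median of all genes was −0.29 for Comb against Con and that of the members −0.55. Low counts limit Oas3 and Mx2 in Comb replicate 3, at 4 and 0 counts.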

Other observations

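Plasmacytoid dendritic cells are known as strong producers of type I interferon. Their 5 markers summed to 12.9 to 23 CPM in the 9 tumors of Con, SFIH and PD, and to 33, 35 and 114 in the Comb tumors. Most of the sum in Comb replicates 1 and 3 was Cox6a2, at 28.6 and 90.7, a gene that muscle also expresses. The skeletal muscle markers of those tumors summed to 564 and 5908. Cox6a2 also stood at 14.1 to 17.9 in Con, where the 5 markers summed to 17.4 to 20.15. Skeletal muscle markers summed to 4.41 to 10.4 there, and the source of Cox6a2 was not tested. Siglech, a more specific marker, stood at 0.582, 7.13 and 11.7 in the Comb tumors and at 0.357 to 2.03 in the other 9. Ccr9 was higher in PD than in Con without overlap, at 1.36 to 3.2 against 0.624 to 0.902. So were Klk1, at 0.213 to 1.63 against 0 to 0.2, and Pacsin1, at 2.8 to 3.81 against 1.07 to 2, where 9.42% of all genes were. Cox6a2 was lower in PD, at 5.58 to 10.1, against 9.36% of all genes. Pacsin1 was also higher in Comb than in Con, at 3.01 to 6.09, against 11.7% of all genes. Among inhibitors of the pathway, Socs1 stood at 21.1 to 22.9 in PD and 19.6 to 29.7 in Comb, above the 6.92 to 17 of Con, and Samhd1, which degrades nucleotides, at 230 to 243 and 228 to 485 against 161 to 194. These were 2 of 6 inhibitors higher in PD without overlap, against 9.42% of all genes, and with Trex1 3 of 6 in Comb, against 11.7%, where Socs1 overlapped by library size alone. Trex1, a nuclease that removes cytosolic DNA, stood at 49.7 to 110 in Comb against 30 to 47.2. None of the 6 inhibitors looked at passed the adjusted p in edgeR against Con, and DESeq2 called Socs1, Samhd1 and Trex1 higher in Comb, against 14.8% of all genes. Ptpn2, a phosphatase, was lower in SFIH than in Con, at 57.1 to 65.5 against 66.2 to 80.1, 1 of 6 against 8.86% of all genes, and Socs3 overlapped between all groups. Adar, which edits double-stranded RNA, was lower in Comb than in Con, at 18.3 to 35.1 against 40 to 44.3, 1 of 6 against 13% of all genes.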
